A study of Mus musculus with 12 samples.

Results

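The 9 genes described here carry signals of cyclic AMP in T cells: the adenosine receptor Adora2a, the adenylyl cyclase Adcy7, the phosphodiesterases Pde2a, Pde3b, Pde4b, Pde4d and Pde7a, the salt-inducible kinase Sik1 and the transcription factor gene Crem. They were found by gene symbol and read by Ensembl identifier in the table of counts, where they make up 10 of 55414 gene records, because Pde2a is split over 2 records. The genes were chosen from measured values of these same libraries, so their levels and fold changes are a description without a test. Another 92 genes of the same pathway, in 11 lists by role, stand beside them and were tested.

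RNA-seq was performed on splenic CD4+ T cells of wild-type (WT) BALB/c mice aged 18 weeks, either with ligature-induced periodontitis (LIP), in which a silk thread tied around a molar inflames the gum, or healthy and without a ligature (CTL). Day 0 cells were collected uncultured, and day 2 cells had been cultured for 2 days with IL-2 and antibodies against TCRβ and CD28, which stand in for antigen and costimulation. There were 3 libraries in each of the 4 groups, numbered 88, 89 and 94 (CTL, day 0), 92, 93 and 94 (LIP, day 0), 92, 93 and 97 (CTL, day 2) and 90, 96 and 97 (LIP, day 2). For some day 2 libraries the labels name antibodies against CD29 or CD30 in place of CD28, and the antibody and IL-2 doses in the labels differ from those in the methods of the study. In the comparison of day 2 with day 0, stimulation, time in culture and the change of libraries cannot be told apart. Nothing says that the libraries of a group came from separate mice, so the p-values measure only the spread between libraries, which may be technical.

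Cyclic AMP is made by adenylyl cyclases when a receptor coupled to the stimulatory G protein is engaged, and in T cells it restrains signals from the antigen receptor. It acts mainly through protein kinase A, which phosphorylates CREB at the promoters of target genes and holds the salt-inducible kinases in check, so that the CREB coactivators of the CRTC family can enter the nucleus. Phosphodiesterases (PDEs) break the nucleotide down and end the signal, and Crem encodes both activators and the short repressor ICER, which closes a negative loop on CREB.

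Library totals ranged from 6249018 to 7845676 counts on day 0 and from 8691699 to 12866718 on day 2. Values are given as CPM (counts scaled to a common library size by the trimmed mean of M values, TMM), with the SD over 3 libraries. The T cell gene Cd4 was present in all 12 libraries at 421 to 643 CPM. CTL 94 stood with the LIP libraries of day 0 for several genes and LIP 90 stood apart from LIP 96 and LIP 97 on day 2, so results that rest on them are also given without them. The level of a gene in these bulk samples cannot show whether fewer cells expressed it or each cell held less of its RNA.

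RefSeq promoter windows, 250 bases before to 50 after a transcription start in build GRCm38.p6, were matched for 4 of the 9 genes (Pde2a, Pde4b, Pde4d and Adcy7, with 13 starts, and not Pde3b, Pde7a, Sik1, Crem or Adora2a) and for all 11 genes on the list of CREB targets (12 starts). The motif that CREB binds is the palindrome TGACGTCA or its half-site TGACG, which reads CGTCA on the other strand. Each palindrome holds a half-site on both strands. The half-site was found, on either strand, in 3 of the 13 starts of the 9 genes and in 12 of the 12 starts of the CREB target list, against 20.8% of 32851 RefSeq starts. The palindrome was in none of the 13 starts, in 2 of the 12 starts and in 1.79% of all starts. A match describes the letters of the window and says nothing of binding. The CREB target list holds genes known to be driven by CREB, so its share is no test of enrichment. The 150 bases before the start are shown for the members with a half-site there, for Fos and Fosb, whose levels differed between LIP and CTL, and for Dusp1, a CREB target with the palindrome. Capitals mark half-sites, and in Dusp1 the palindrome.
Pde4b, chr4:102421405-102421554, plus strand: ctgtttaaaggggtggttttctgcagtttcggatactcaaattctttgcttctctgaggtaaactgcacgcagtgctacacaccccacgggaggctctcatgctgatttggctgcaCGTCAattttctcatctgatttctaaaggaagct
Adcy7, chr8:88282842-88282991, plus strand: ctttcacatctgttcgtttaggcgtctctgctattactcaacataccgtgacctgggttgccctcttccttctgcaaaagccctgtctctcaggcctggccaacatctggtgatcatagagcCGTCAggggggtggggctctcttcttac
Fos, chr12:85473740-85473889, plus strand: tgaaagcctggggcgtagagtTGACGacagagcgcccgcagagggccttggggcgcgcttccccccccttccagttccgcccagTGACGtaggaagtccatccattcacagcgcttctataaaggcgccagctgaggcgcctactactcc
Fosb, chr7:19310046-19310195, minus strand: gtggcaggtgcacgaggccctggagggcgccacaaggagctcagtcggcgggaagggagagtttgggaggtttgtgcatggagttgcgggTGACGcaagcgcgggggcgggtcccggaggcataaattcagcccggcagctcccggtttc
Dusp1, chr17:26508473-26508622, minus strand: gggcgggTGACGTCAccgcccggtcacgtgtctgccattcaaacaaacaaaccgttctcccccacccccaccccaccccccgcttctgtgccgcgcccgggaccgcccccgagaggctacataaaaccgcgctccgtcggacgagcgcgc

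On day 0, Pde3b and Sik1 were the members that stood lowest in LIP relative to CTL, and Adcy7 was the member with the clearest higher level. Pde3b and Pde4d, which degrade cyclic AMP, Pde7a, Sik1 and Crem were lower in every LIP library than in every CTL library, while Adcy7 was higher in every LIP library. The levels of Adora2a, Pde2a and Pde4b overlapped between the groups. All 9 genes passed the filter on low counts. So 6 of the 9 genes had groups that did not overlap, against 19.1% of the 14064 genes tested, 5 had an unadjusted p under 0.05 against 13.9%, and 1, Pde3b, had an adjusted p under 0.05 against 0.427%. Pde3b was called whichever library was left out, in fits that called 13 to 658 genes in all. Without CTL 94, edgeR also called Pde4d and Sik1, against 4.59% of 14343 genes, and DESeq2 called the same 3 genes, against 3.07% of the 6702 genes to which it gave an adjusted p. With RLE scaling of all 6 libraries, edgeR called Pde3b and Sik1 among 66 genes in all, and with no filter on low counts Pde3b, Pde4d and Sik1 among 645. These values had a part in the choice of the genes, so nothing is read from the counts.

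**Figure D1:**
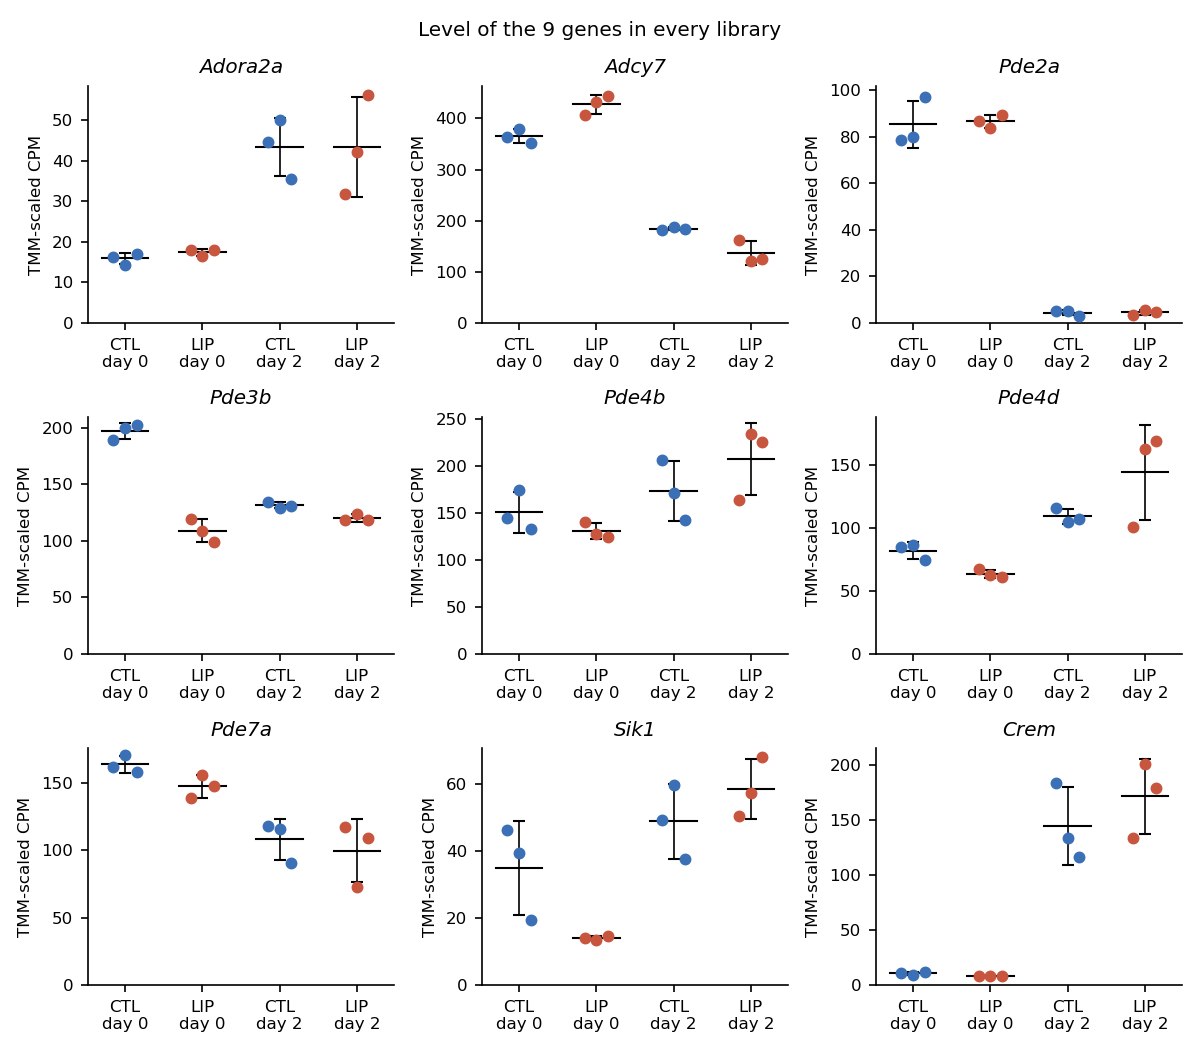
TMM-scaled CPM of the 9 genes (vertical axes, from 0) in each library (points) of the 4 groups (horizontal axes); bars are the mean and the SD of 3 libraries, and Pde2a is the sum of its 2 records. Pde3b sits at 189 to 202 CPM in CTL and 98.5 to 119 in LIP on day 0, and Crem goes from at most 12.1 CPM on day 0 to at least 116 on day 2.

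Adora2a encodes an adenosine receptor through which extracellular adenosine raises cyclic AMP in T cells. On day 0 it measured 16.2, 14.4 and 17.1 CPM in CTL 88, 89 and 94 and 17.9, 16.4 and 17.9 CPM in LIP 92, 93 and 94. The groups overlapped, with a log2 fold change of LIP over CTL of 0.14 (SE 0.12). On day 2 it measured 44.5, 49.9 and 35.6 CPM in CTL 92, 93 and 97 and 31.7, 42.2 and 56.3 CPM in LIP 90, 96 and 97. The day 2 groups overlapped too, at means of 43.4 ± 7.24 and 43.4 ± 12.3 CPM, and every day 2 library was above every day 0 library. The increase from day 0 to day 2 was 2.73-fold in CTL and 2.48-fold in LIP.

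Adcy7, an adenylyl cyclase abundant in blood cells, lies on chromosome 8 (GRCm39, 88998882 to 89059394, plus strand) and overlaps Brd7 on the opposite strand. On day 0 it measured 364, 380 and 352 CPM in CTL and 407, 432 and 444 CPM in LIP. The groups did not overlap, and the log2 fold change was 0.23 (SE 0.07), from 0.20 to 0.27 when 1 library was left out. On day 2 the order was the other way, with 181, 188 and 184 CPM in CTL 92, 93 and 97 and 163, 122 and 125 CPM in LIP 90, 96 and 97. Again the groups did not overlap, and the log2 fold change was -0.44 (SE 0.13), or -0.56 without LIP 90, the LIP library closest to CTL. The level was lower on day 2 in both groups, at 0.503 of its day 0 value in CTL and 0.319 in LIP, a difference of the day effect (LIP minus CTL) of -0.66 on the log2 scale (SE 0.15). Whether the counting separated the strands is not given in the sources used here, so that reads of Adcy7 and Brd7 in their shared bases may not be told apart. The same limit holds for Pde7a, which overlaps Mtfr1, and for Crem, which overlaps Gm6225. Pde3b and Pde4d overlap records that held few reads, 4933406I18Rik and Rps3a3.

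Pde3b, the phosphodiesterase that cyclic GMP inhibits, lies on chromosome 7 (GRCm39, 114013685 to 114138486, plus strand). It measured 189, 200 and 202 CPM in CTL 88, 89 and 94 on day 0, from 1254, 1664 and 1542 counts. In LIP 92, 93 and 94 it measured 119, 109 and 98.5 CPM, from 862, 776 and 739 counts. The lowest CTL and the highest LIP library were farther apart than any libraries of 1 group, and CTL 94 stood with the other CTL libraries. The mean was 197 ± 7.40 CPM in CTL and 109 ± 9.99 in LIP, or 0.554 of the CTL level, a log2 fold change of -0.85 (SE 0.08) that stayed between -0.92 and -0.79 when 1 library was left out. Its day 2 values were 134, 129 and 131 CPM in CTL and 118, 124 and 118 CPM in LIP. Those groups did not overlap either, but the difference was smaller, with a log2 fold change of -0.14 (SE 0.10). CTL cells thus went from the highest level of the 4 groups on day 0 down to 0.666 of it on day 2, whereas the LIP level was close to the day 2 levels on both days. The day effect was higher in LIP than in CTL by 0.73 on the log2 scale (SE 0.12).

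The summed level of the regulatory T cell markers Foxp3, Il2ra, Ikzf2 and Ctla4 was 296 to 419 CPM in CTL and 434 to 464 CPM in LIP on day 0, where Pde3b and other members stood apart too. The sum was carried by Ikzf2 (124 to 196 CPM in CTL and 229 to 250 in LIP) and Il2ra (77.4 to 91.1 and 101 to 107). Foxp3, the defining gene, overlapped, at 47.3 to 65.4 CPM in CTL and 57.8 to 72.7 CPM in LIP, and so did Ctla4, at 34.4 to 67.0 and 34.7 to 43.3 CPM. On day 2 the sums overlapped, and Foxp3 (35.9 to 42.2 CPM in CTL and 27.9 to 31.8 in LIP) and Ikzf2 (106 to 126 and 77.3 to 93.5) were lower in LIP without overlap. The part of these cells in the results was not tested. The list of 5 T cell genes summed to 1567.7 to 1698.0 CPM in CTL and 1453.5 to 1567.6 in LIP on day 0, apart by a very narrow margin. The 6 listed genes of pancreatic acinar cells, all at 0 in CTL on day 0, summed to 0.137 to 12.1 CPM in LIP, and their part was not tested.

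Pde4b and Pde4d belong to the cyclic AMP-specific family that T cells recruit to the antigen receptor. Pde4b measured 145, 175 and 133 CPM in CTL and 141, 128 and 125 CPM in LIP on day 0, and the groups overlapped. On day 2 it measured 207, 171 and 143 CPM in CTL and 164, 234 and 226 CPM in LIP, again with overlap. Between the days its level changed by 1.15-fold in CTL, where the days overlapped, and by 1.59-fold in LIP, where they did not. Pde4d measured 85.1, 86.4 and 74.2 CPM in CTL and 67.4, 62.5 and 61.2 CPM in LIP on day 0, without overlap, for a log2 fold change of -0.36 (SE 0.08). On day 2 it measured 116, 105 and 107 CPM in CTL and 101, 163 and 169 CPM in LIP. LIP 90 was the lowest of those 6 libraries and LIP 96 and LIP 97 were the highest, so the log2 fold change was 0.39 (SE 0.20) with all libraries and 0.62 without LIP 90. In LIP cells the day 2 level of Pde4d was thus 2.27-fold that of day 0, against 1.34-fold in CTL cells.

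Pde7a, a phosphodiesterase of high affinity for cyclic AMP, lies on chromosome 3 (GRCm39, 19277270 to 19365890, minus strand). It measured 162, 171 and 158 CPM in CTL and 139, 156 and 148 CPM in LIP on day 0. The groups were apart by a narrow margin, with a log2 fold change of -0.14 (SE 0.07). Its day 2 values were 118, 116 and 90.3 CPM in CTL and 117, 72.9 and 109 CPM in LIP, and the groups overlapped. Its day 2 level was below every day 0 library in both groups, at 0.661 of the day 0 level in CTL and 0.674 in LIP.

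Pde2a, which cyclic GMP stimulates, showed the deepest decline of the 9 genes between the days and no separation between LIP and CTL. Its reads were split between records with overlapping exons on chromosome 7 (GRCm39, 101060093 to 101162026 and 101070825 to 101162038, plus strand). The record ENSMUSG00000030653 held 0, 0 and 560 counts in CTL 88, 89 and 94 and 0, 113 and 338 counts in LIP 92, 93 and 94. The record ENSMUSG00000110195 held 523, 666 and 179 counts in the same CTL libraries and 631, 483 and 330 counts in the LIP libraries. Where the first was high the second was low, and no result here rests on either alone. The first also overlaps Arap1 on the same strand. Summed, Pde2a measured 78.6, 80.0 and 97 CPM in CTL and 86.8, 83.7 and 89.1 CPM in LIP on day 0. The groups overlapped, with a log2 fold change of 0.03 (SE 0.09). On day 2 the sum was 4.96, 5.13 and 3.06 CPM in CTL and 3.58, 5.70 and 4.79 CPM in LIP, all from the second record, and each day 2 library was below each day 0 library. The day 2 level was 0.0516 of the day 0 level in CTL and 0.0542 in LIP.

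Sik1, the kinase whose transcription CREB itself drives, lies on chromosome 17 (GRCm39, 32058850 to 32074818, minus strand). It measured 46.3, 39.4 and 19.3 CPM in CTL 88, 89 and 94 on day 0. In LIP 92, 93 and 94 it measured 14.0, 13.5 and 14.7 CPM. CTL 94 lay just above the highest LIP library and far below CTL 88 and CTL 89, yet the groups did not overlap. The level in LIP was 0.405 of that in CTL, a log2 fold change of -1.30 (SE 0.25) that ran from -1.60 without CTL 94 to -1.07 without CTL 88. On day 2 the groups overlapped, with 49.2, 59.8 and 37.6 CPM in CTL and 50.4, 57.4 and 68.1 CPM in LIP. The level on day 2 was 4.16-fold that of day 0 in LIP, from the lower start, and 1.40-fold in CTL with overlapping days, a difference of the day effect of 1.57 on the log2 scale (SE 0.36). In CTL the log2 fold change between the days was 0.48, and ran from 0.22 without CTL 94 to 0.75 without CTL 88.

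Crem measured 10.5, 9.01 and 12.1 CPM in CTL and 7.97, 8.00 and 7.87 CPM in LIP on day 0, from 57 to 92 counts a library. The groups did not overlap, and the log2 fold change was -0.40 (SE 0.17), or -0.29 without CTL 94. On day 2 it measured 184, 134 and 116 CPM in CTL and 134, 201 and 179 CPM in LIP, and these groups overlapped. This was the largest fold change upward among the 9 genes, 13.7-fold in CTL and 21.5-fold in LIP. The counts do not distinguish ICER from the longer Crem transcripts, since they were made per gene.

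**Figure D2:**
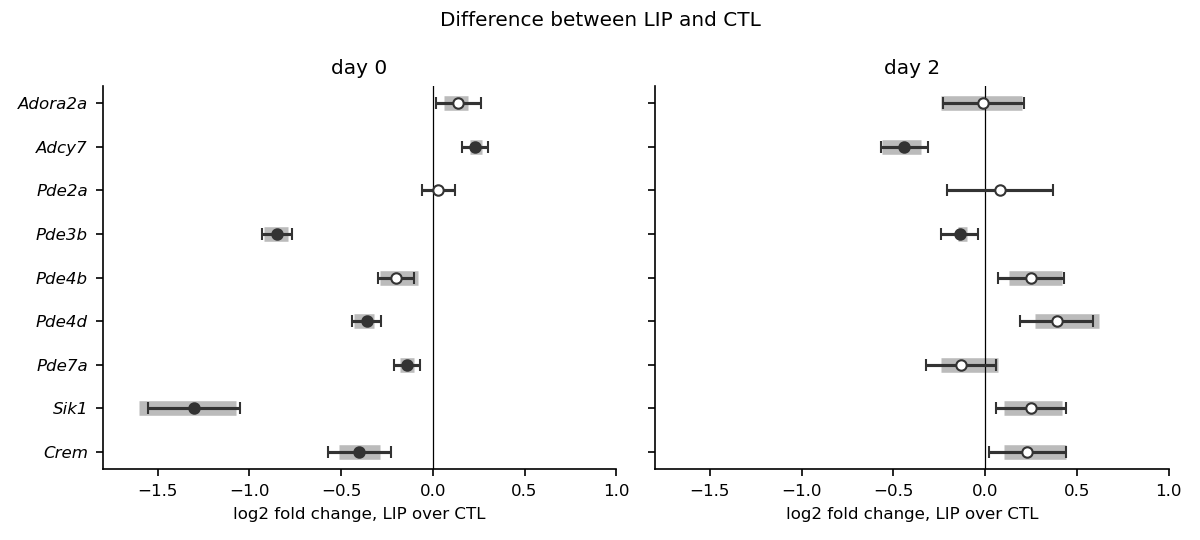
Log2 fold change of LIP over CTL (horizontal axes) for each of the 9 genes, with day 0 in the left and day 2 in the right panel; whiskers are the standard error of the edgeR fit, gray bars span the values when 1 library was left out (not run for the summed Pde2a), and filled points mark genes whose groups do not overlap. Sik1 (-1.30) and Pde3b (-0.85) lie farthest left on day 0, and Adcy7 moves from 0.23 on day 0 to -0.44 on day 2.

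On day 2, none of the 9 genes had an adjusted p under 0.05 in edgeR, against 0% of 14041 genes tested. At an unadjusted p under 0.05 there was 1, Adcy7, against 16.5%, and DESeq2 called none of the 9, against 3.62% of 13490 genes. With all 12 libraries in one fit, edgeR called Adcy7 on day 2, against 5.01% of 15475 genes. The groups did not overlap for 2 genes, Pde3b and Adcy7, against 21.4% of the genes tested. For the difference of the day effect between LIP and CTL, edgeR called none of the 9 genes, against 0.0517% of 15475 genes, while 5 (Pde3b, Pde4d, Sik1, Crem and Adcy7) had an unadjusted p under 0.05, against 15.9%. DESeq2 called 4 of these 5, all but Crem, against 4.36% of 12174 genes. Leaving out LIP 90 raised the calls over all genes, and with them those of members. Without it edgeR called Adcy7 and Pde4d on day 2, against 13.9% of 14453 genes, and Adcy7, Pde3b, Pde4d and Sik1 for the difference of the day effect, against 10.1% of 15823. Without CTL 94 that difference was called for Sik1, against 0.169% of 15981 genes. These values too had a part in the choice of the genes, and nothing is read from the counts.

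Markers of other cells also differed between the day 2 libraries. The 5 B cell markers summed to 0.894 CPM in LIP 90 and to 28.3 and 30.5 CPM in the other LIP libraries, against 2.32 to 18.5 CPM in CTL, so that the groups overlapped. Without overlap, the 4 NK cell markers summed to 4.65 to 7.17 CPM in CTL and 13.9 to 33.0 in LIP, most of it Klrk1 (3.70 to 6.01 and 10.6 to 30.5 CPM), while Ncr1 was at no more than 0.374 CPM. The 5 markers of naive T cells summed to 1201.9 to 1228.0 CPM in CTL and 1297.7 to 1797.9 in LIP. Lower sums that did not overlap either were those of the myeloid list (0.680 to 0.949 CPM in CTL and 1.07 to 2.06 in LIP), the platelet list (0.633 to 1.13 and 1.34 to 2.62) and the acinar list (5.10 to 10.0 and 2.98 to 5.05). The platelet sum was mostly Itga2b (0.422 to 0.715 and 1.16 to 2.43 CPM), and Ppbp was at 0 in both groups. The acinar sum was Prss2 alone in CTL, where 5 of the 6 genes were at 0, and nearly all Prss2 in LIP, where 4 were. The part of these markers in the day 2 values was not tested.

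Between day 0 and day 2, the 9 genes went in both directions. In CTL cells 7 had an adjusted p under 0.05, against 69.0% of 15475 genes, and 7 had days that did not overlap, against 73.3%. In LIP cells 8 had an adjusted p under 0.05, against 71.8%, and 8 had days that did not overlap, against 74.8%. Most of the genes tested were called, and these shares are near the background. Crem, Adora2a and Pde4d stood higher and Adcy7, Pde7a and Pde2a lower on day 2 in both groups, whereas Sik1 and Pde4b had overlapping days in CTL and Pde3b in LIP. Scaling by library totals alone moved the median of all genes by -0.21 on the log2 scale in CTL and by -0.36 in LIP, and with it the log2 fold change of Pde3b in LIP turned from 0.14 to -0.22, and edgeR called it with that scaling. The direction of the other genes except Pde2a did not turn with the scaling in this comparison. The summed Pde2a was not run with another scaling.

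Per length, the 5 member phosphodiesterases held most of the summed level of their family, though Pde5a, no member, stood among them on day 0. On day 0 they made up 70.6% to 73.8% of the summed CPM per kb of exon over 21 phosphodiesterase genes, and on day 2 80.8% to 86.2%. The order of the levels on day 0 in CTL was Pde7a (16.2 ± 0.632 CPM per kb), Pde3b (15.4 ± 0.577), Pde5a (14.2 ± 1.92), Pde4b (12.8 ± 1.84), Pde2a (11.3 ± 1.36) and Pde4d (5.64 ± 0.462). Neighbours from Pde7a to Pde2a differed by no more than their summed SDs, and Pde4d stood clearly below them. In LIP on day 0, Pde3b dropped to the fifth place (8.47 ± 0.779 CPM per kb), under Pde7a (14.6 ± 0.853), Pde2a (11.5 ± 0.361), Pde4b (11.1 ± 0.718) and Pde5a (10.4 ± 0.848). The summed level of the family was 80.9 to 89.3 CPM per kb in CTL and 68.1 to 71.2 in LIP on day 0, without overlap, and Pde3b, whose values had a part in its choice, is a large share of that gap. On day 2 the sums overlapped, at 48.3 to 58.0 in CTL and 49.9 to 59.6 in LIP. Pde4b then held the first place, with 14.7 ± 2.68 CPM per kb in CTL and 17.6 ± 3.23 in LIP, and Pde7a, Pde3b and Pde4d the next places. Pde2a was down to place 10 of 21 in both groups (0.583 CPM per kb in CTL and 0.624 in LIP), below Pde8a, Pde5a and Pde1b among others.

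**Figure D3:**
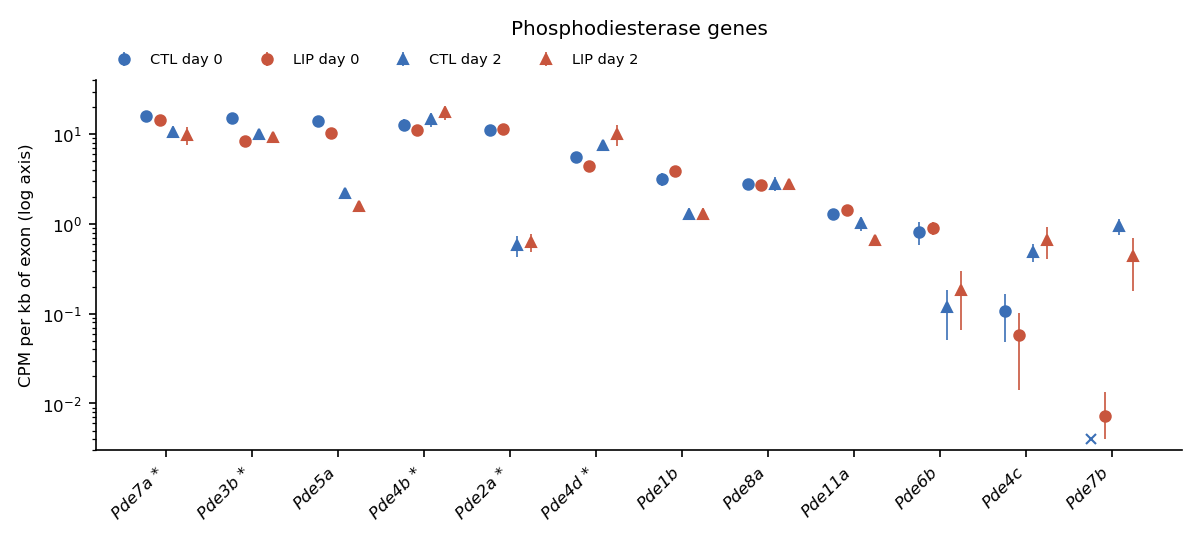
Mean CPM per kb of annotated exon (vertical log axis) for the phosphodiesterase genes that reached 0.5 in at least 1 group, in CTL (blue) and LIP (red) on day 0 (circles) and day 2 (triangles); bars are the SD of 3 libraries, cut at the lower end of the axis, an asterisk marks the 5 member genes, and a cross marks a group with 0 in every library. Pde2a and Pde5a drop on day 2 to 0.583 and 2.20 CPM per kb in CTL, and Pde4b takes the first place.

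Of the other phosphodiesterases, none passed the edgeR test between LIP and CTL on day 0 or on day 2. On day 0, 6 were tested, with 1 higher and 1 lower at an unadjusted p under 0.05, against 13.9% of all genes, and 1 lower, Pde5a, in DESeq2, against 3.07%. On day 2, 7 were tested, with 0 higher and 4 lower at an unadjusted p under 0.05, against 16.5%, and none in DESeq2, against 3.62%. With all 12 libraries in one fit, edgeR called Pde5a and Pde11a lower in LIP on day 2, against 5.01% of all genes. Of 16 listed, 9 were tested between the days: in CTL 3 rose and 5 fell, against 69.0% of all genes called, and in LIP 2 rose and 5 fell, against 71.8%. Pde5a, the cyclic GMP-specific enzyme with the highest level of the 16, measured 137, 175 and 144 CPM in CTL and 115, 117 and 101 CPM in LIP on day 0. These groups did not overlap, but the adjusted p was 0.0839 (log2 fold change -0.45, SE 0.10), and ran from 0.0162 without CTL 94 to 0.381 without LIP 94. By day 2 it had fallen to 21.3 to 25.0 CPM in CTL and 15.7 to 18.0 CPM in LIP, with a log2 fold change of -2.70 in CTL (SE 0.12, adjusted p = 1.05e-09) and -2.72 in LIP (SE 0.12, adjusted p = 1.13e-09). Pde7b, the close relative of Pde7a, had 0 counts in the 3 CTL libraries and 2 counts over the 3 LIP libraries on day 0. Day 2 libraries held 9.28, 13.0 and 13.7 CPM in CTL and 5.81, 2.15 and 8.80 CPM in LIP. In CTL this was at least 90.4-fold higher, with day 0 set to 3 counts over the group, the upper limit for a count of 0.

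Of the 11 listed genes that CREB is known to drive, 8 were tested on day 0. Fosb and Fos fell in LIP, none rose and 6 did not pass the test, against 0.427% of all genes called. The 8 had a log2 fold change below 0 and an unadjusted p under 0.05, against 13.9% of all genes tested. The median log2 fold change of the list was -0.91, against 0.01 over all genes tested. The list was chosen with earlier results of these data known, so its median and the count of 8 are a description. Fosb, a subunit of the AP-1 transcription factor, measured 196, 121 and 64.2 CPM in CTL 88, 89 and 94 and 25.2, 27.5 and 22.1 CPM in LIP 92, 93 and 94. It fell by 2.34 on the log2 scale (SE 0.31, adjusted p = 0.00718), lower in 3 of 3 LIP libraries than in any CTL library. Fos, of the same family of subunits, measured 163, 130 and 50.8 CPM in CTL and 34.1, 26.0 and 31.7 CPM in LIP, and fell by 1.89 on the log2 scale (SE 0.32, adjusted p = 0.0286). When 1 library was left out, the adjusted p of Fosb ran from 9.44e-07 without CTL 94 to 0.116 without LIP 93, and that of Fos from 2.27e-07 to 0.286 without the same libraries. Fosb did not pass without LIP 93 or LIP 94, and Fos did not pass without CTL 88, LIP 92, LIP 93 or LIP 94.

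**Figure D4:**
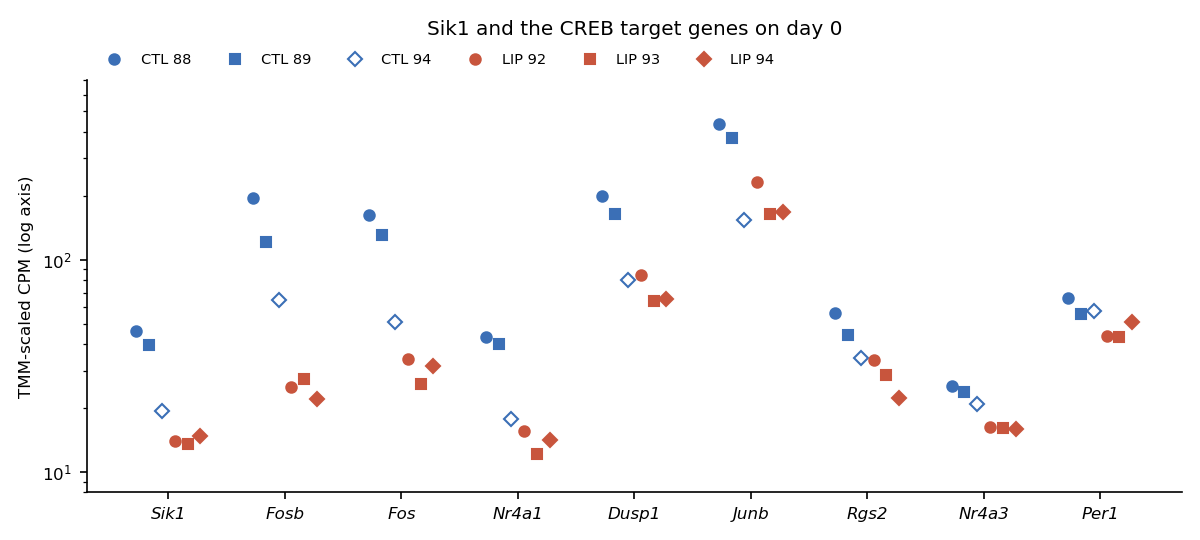
TMM-scaled CPM (vertical log axis) of Sik1 and of the 8 tested CREB target genes in the 6 libraries of day 0, with CTL in blue, LIP in red and CTL 94 as the open diamond. CTL 94 lies between the other CTL libraries and the LIP libraries for Sik1 (19.3 CPM), Fosb (64.2 CPM) and Fos (50.8 CPM).

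The other 6 tested targets did not pass the test, and Dusp1, Rgs2 and Per1 among them were named after their values were seen. Their log2 fold changes were -1.27 for Nr4a1 (adjusted p = 0.0723), -1.04 for Dusp1 (0.106), -0.77 for Junb (0.260), -0.66 for Rgs2 (0.142), -0.53 for Nr4a3 (0.0842) and -0.37 for Per1 (0.142). Nr4a1 and Nr4a3 encode orphan nuclear receptors that signals of the antigen receptor induce early, and Dusp1 a phosphatase of MAP kinases. CTL 94 also stood apart for the list as a whole, whose summed level was 1188.4, 954 and 479 CPM in CTL 88, 89 and 94 and 486, 382 and 391 CPM in LIP 92, 93 and 94. The sum in CTL 94 was below that in LIP 92, so the groups overlapped, and Junb was lower in CTL 94 (153 CPM) than in each LIP library (164 to 232 CPM). Without CTL 94, edgeR called 7 of the 8 targets, or all but Per1, against 4.59% of all genes tested. This count, too, is a description, because of how the list was chosen.

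Apart from Fosb and Fos, the remaining links of the pathway did not pass the edgeR test between LIP and CTL on day 0. Over all 11 lists, 64 of the 92 other genes were tested, 2 fell (Fosb and Fos) and none rose, and at an unadjusted p under 0.05 there were 3 higher and 14 lower, against 13.9% of all genes. DESeq2 called 4 lower, Fos, Fosb, Pde5a and Rgs2, against 3.07% of all genes. In edgeR none of the Gs-coupled receptors (9 tested), adenosine enzymes and transporters (6), G protein subunits (4), adenylyl cyclases (4), subunits and inhibitors of protein kinase A (7), anchoring proteins (9), exchange factors and efflux pumps (2), other salt-inducible kinases (2), or CREB family members and coactivators (7) was called. On day 2, 68 were tested and none passed in edgeR (3 higher and 9 lower at an unadjusted p under 0.05, against 16.5% of all genes), while DESeq2 called 1 lower, Fosb, against 3.62%, and edgeR with all 12 libraries in one fit called 3 lower, Pde5a, Pde11a and Sik2, against 5.01%. Without LIP 90, 9 passed, 4 higher and 5 lower, against 13.9% of all genes. For the difference of the day effect, none of 70 passed in edgeR, 8 were higher and 6 lower at an unadjusted p under 0.05, against 15.9% of all genes, and DESeq2 called Dusp1, Fos and Nr4a1, all higher in LIP, against 4.36%. The day effect of Nr4a1 was higher in LIP by 1.80 on the log2 scale (SE 0.42, adjusted p = 0.0876) and that of Fos by 2.04 (SE 0.44, adjusted p = 0.0839). In edgeR both passed without CTL 94 and without LIP 90 and in no other fit that left out 1 library. The adjusted p of Fos ran from 8.17e-04 without CTL 94 to 0.212 without LIP 94 of day 0, and that of Nr4a1 from 0.00583 without LIP 90 to 0.242 without LIP 93.

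In each of the 11 lists at least 1 gene changed between the days in CTL and in LIP. In CTL 25 of 70 tested genes rose and 29 fell, against 69.0% of all genes called, and in LIP 26 rose and 31 fell, against 71.8%, so that these shares are near those of all genes. The 51 genes that passed in both groups had the same direction in each. Among receptors, Ptger2, which binds prostaglandin E2, measured 16.2, 10.9 and 16.3 CPM in CTL on day 0 and 137, 141 and 119 CPM on day 2. Its log2 fold change was 3.20 in CTL (SE 0.17, adjusted p = 2.76e-09) and 2.69 in LIP (SE 0.16, adjusted p = 8.60e-09). In the other direction went Vipr1, a receptor for vasoactive intestinal peptide, by -3.00 in CTL and -3.31 in LIP. Nt5e encodes CD73, the enzyme that makes adenosine from AMP at the cell surface. It fell, with a log2 fold change of -3.75 in CTL (SE 0.27, adjusted p = 4.71e-08) and -4.46 in LIP (SE 0.28, adjusted p = 1.21e-08), while Adora2a, the receptor for its product, stood higher. Rapgef4, which encodes the cyclic AMP sensor Epac2, fell as well, by a log2 fold change of -5.22 in CTL (SE 0.27, adjusted p = 2.76e-09) and -4.47 in LIP (SE 0.25, adjusted p = 4.44e-09).

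Among the CREB targets, 5 rose between the days in CTL, 3 fell and 1 did not pass the test, against 69.0% of all genes called. In LIP 6 rose and 3 fell, against 71.8%. Nr4a2 rose by 5.49 on the log2 scale in CTL (SE 0.51, adjusted p = 5.15e-07) and by 5.70 in LIP (SE 0.57, adjusted p = 9.21e-07), from 0.394 to 1.95 CPM in CTL on day 0. Nr4a3 rose by 2.94 in CTL and 3.75 in LIP, and Nr4a1 by 1.93 and 3.72. Fosb fell, with -4.67 in CTL (SE 0.40, adjusted p = 2.43e-07) and -3.91 in LIP (SE 0.46, adjusted p = 4.72e-06), to at most 6.54 CPM on day 2. Sik1 and Crem, known to be under CREB control themselves, stood higher in each day 2 library of LIP than in its day 0 libraries, and in CTL this held for Crem alone.

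**Figure D5:**
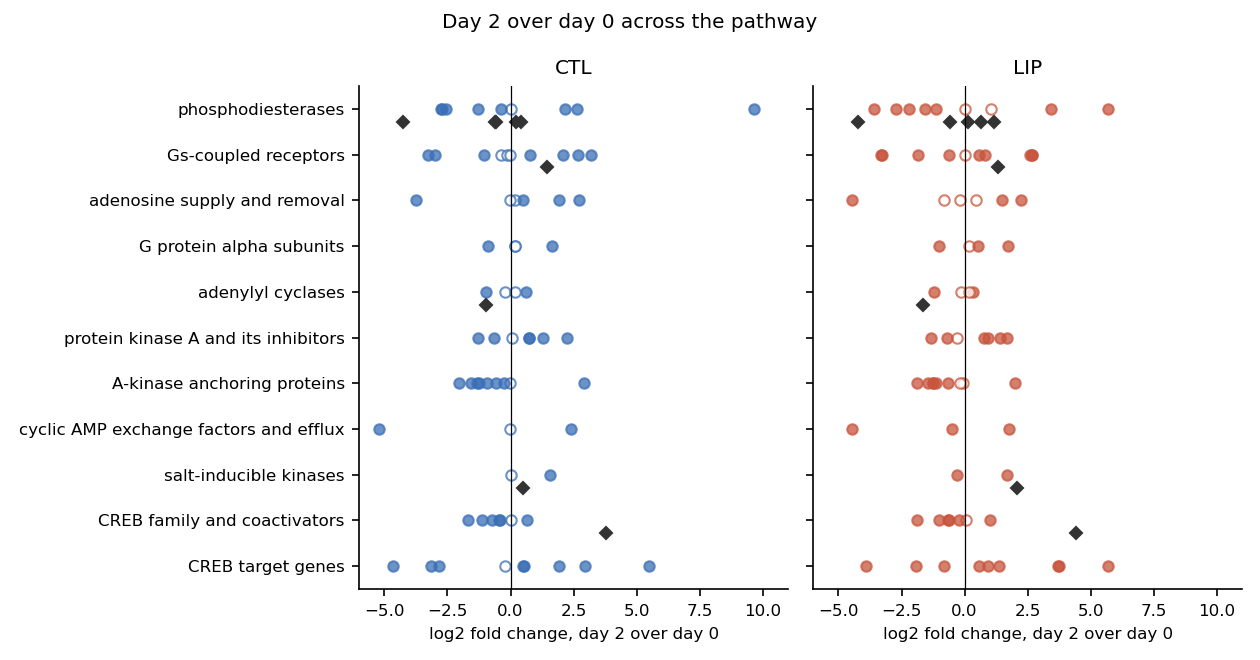
Log2 fold change of day 2 over day 0 (horizontal axes) in CTL (left) and LIP (right) for the tested genes of the 11 pathway lists (vertical axis); filled circles mark genes with an adjusted p under 0.05, open circles the others, and black diamonds the 9 member genes, shown without a test beside the list of their role. Pde7b lies at 9.66 in CTL, a value that depends on the prior count because its day 0 counts are 0, and Crem is the member farthest to the right in both panels.

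Over the 12 libraries, the genes whose log2 CPM was most alike that of a member were Itga4 and Prex1 for Pde2a (Pearson r of 0.9981 for each) and Hif1a (0.9967) and Dusp16 (0.9959) for Crem. For Adcy7 they were Gramd4 (0.9931) and Mical2 (0.9925), for Adora2a Sos2 (0.9887) and Klc3 (0.9872), and for Pde4d Cenpj (0.9794) and Gabpb1 (0.9786). For the remaining members they were D630030B08Rik (0.9753) and Gm42551 (0.9599) for Pde7a, Jarid2 (0.9682) and Rps26-ps1 (0.9627) for Sik1, Gpr146 (0.9572) and Sipa1l2 (0.9402) for Pde4b, and Lman2l (0.9052) and Phf8 (0.9024) for Pde3b. The 12 libraries fall into 2 days, and a large day effect gives a high correlation with any gene that shares it, so the values describe the pattern and carry no test.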

How the data were processed

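Total RNA of purified splenic CD4+ T cells was sequenced with a directional library kit as paired reads. Per the labels, the authors checked reads with FastQC 0.11.9, trimmed them with Trimmomatic 0.38 and quantified genes on GRCm39 with RSEM 1.3.0 and Bowtie2, while the methods give another Trimmomatic version. The deposited table of RSEM expected counts holds 12 libraries. It was rounded to whole numbers (11.0% of values were not whole) and analysed with edgeR 4.0.16 in R 4.3.3. The tables deposited per day hold the authors' scaled signal per gene, fold changes and p-values, and only their gene symbols were used. In the day 2 table, 2 columns of per-sample values could not be tied to a labelled sample and were not used. Gene positions and exon lengths (all annotated exons of a gene merged) were taken from a GRCm39 annotation, and promoters from RefSeq.

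Genes were filtered with filterByExpr, scaled by TMM and tested with the quasi-likelihood F-test (Benjamini-Hochberg adjustment over all genes tested, called at an adjusted p under 0.05). LIP was compared with CTL in the 6 libraries of each day, and the day effects and their difference in all 12. No replicate block was used. The functions were tested on simulated data, in which the share of false calls was somewhat above the threshold, except for the difference of the day effect, so calls close to it are less certain than the adjusted p says. CPM values were scaled over all 12 libraries, and 1 count is worth 0.0894 to 0.150 CPM. Counting intervals are not given because the spread over libraries includes them.

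The 9 genes, the 11 pathway lists and the marker lists were chosen with earlier results of these data known. Named beside the 9 genes were list genes called between LIP and CTL or for the difference of the day effect, the 5 highest and 5 lowest day effects called in both groups, the gene with the highest mean level in each list, and the 2 genes most alike each member; 1 gene so named is not reported here. Alternatives were RLE scaling, library totals alone, no filter on low counts, DESeq2 1.42.0, all 12 libraries in one fit (for LIP against CTL) or only the groups compared (for the day effects), and leaving out each library. Summing the overlapping Pde2a records was added after seeing the data. Overlapping and antisense genes may share reads.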

Additional observations from a re-analysis of the deposited data

How the results depend on the processing

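The number of genes called depended on the settings between LIP and CTL and not between the days, where each count stayed within 1.5 times its value. On day 0 edgeR called 60 genes and 2 of the pathway lists. The counts were 645 and 11 with no filter on low counts, 206 and 4 with DESeq2 and 12 genes with all 12 libraries in one fit, and 13 to 658 and 0 to 9 when 1 library was left out (658 and 9 without CTL 94). On day 2 edgeR called 0 and 0. The counts were 1 gene with library totals alone, 662 and 1 with no filter, 489 and 1 with DESeq2 and 775 and 3 with all 12 libraries in one fit, and 0 to 2014 and 0 to 9 when 1 library was left out (2014 and 9 without LIP 90). For the difference of the day effect edgeR called 8 and 0. The counts were 97 genes with library totals alone, 815 and 7 with no filter, 531 and 3 with DESeq2, and 1 to 1596 and 0 to 7 when 1 library was left out (1596 and 7 without LIP 90, 27 and 3 without CTL 94). Without a filter the adjusted p of Fos on day 0 was 5.21e-77 at a log2 fold change of -1.88, and the cause of these small values was not tested. Fos and Fosb kept their direction in 24 of 24 values under the alternatives and passed in 18. Of 616 log2 fold changes of the 8 genes other than Pde2a under the alternatives, 601 moved by less than the SD between replicates and 17 turned sign, none of a value called in the report; 1 of these, Pde3b between the days in LIP, was called with library totals alone. The cause of the 15 larger moves was not tested. The summed Pde2a was not run under these alternatives, and its separate records are not interpreted. No paired analysis was run. The groups compared share only the number 94 on day 0 and 97 on day 2. Numbers 92 and 93 also stand in both LIP on day 0 and CTL on day 2, and no fit used this. On day 0, CTL 88 and 89 and LIP 92 and 93 share no number, so that number and ligature cannot be told apart for them. At number 94, Sik1 measured 19.3 CPM in CTL and 14.7 in LIP, Fos 50.8 and 31.7, and Pde3b 202 and 98.5. Junb went the other way, at 153 and 168 CPM. The 3 libraries a group and 57 to 92 counts of Crem on day 0 limit the precision of its difference.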

Other observations

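The most abundant gene of each pathway list described the rest of the cyclic AMP machinery of these cells. Over the 12 libraries Akap13, which anchors protein kinase A, had the highest mean level (1005.9 CPM, from 472 to 1592.2). Gnas, the stimulatory G protein subunit, averaged 362 CPM (154 to 590), Crebbp, the CREB-binding coactivator, 362 CPM (239 to 562), and Prkar1a, a regulatory subunit of protein kinase A, 315 CPM (200 to 432). Junb, an AP-1 subunit among the CREB targets, averaged 285 CPM. Sik3 averaged 149 CPM, the receptor Gpr174 122 CPM, adenosine kinase (Adk) 112 CPM, the efflux pump Abcc4 41.5 CPM and the cyclase Adcy6 25.7 CPM, below Adcy7 in every library.

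These genes differed in how they stood on day 2. Gnas rose by 1.65 on the log2 scale in CTL (SE 0.10, edgeR adjusted p = 9.16e-09) and by 1.72 in LIP (SE 0.10, adjusted p = 5.93e-09). Sik3 rose by 1.57 in CTL and 1.68 in LIP, Adk by 1.91 and 1.50, and Prkar1a by 0.72 and 0.93. Akap13 fell, with a log2 fold change of -1.31 in CTL (SE 0.11, adjusted p = 1.60e-07) and -1.45 in LIP (SE 0.11, adjusted p = 5.93e-08), and so did Crebbp, with -0.72 and -0.64. Of the 9 anchoring proteins tested, 1 rose in both groups and 7 fell in CTL and 6 in LIP, against 69.0% and 71.8% of all genes called, with a median log2 fold change of -0.94 and -1.14, against -0.02 and -0.00 over all genes tested.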
